A study of Mus musculus with 24 samples.

Results

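The genes described are 10 leukocyte adhesion molecules and integrins, chosen by symbol, out of 24411 genes in the tables. They comprise the immunoglobulin superfamily molecules *Vcam1* and *Icam1*, the hyaluronan receptor *Cd44*, the alpha subunits *Itgam*, *Itgal*, *Itga4*, *Itga5* and *Itgav*, and the beta subunits *Itgb2* and *Itgb1*. All 10 passed the filter on low values (a mean of at least 10 normalized counts) in each of the 9 comparisons.

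The study sequenced polyA RNA from mouse astrocytes and microglia cultured in serum-free media. Analysed here were 7 conditions with 3 libraries each, 21 in all, with 2016139 to 11570122 reads on genes per library (median 5098168). Astrocytes came from the forebrain of mice at postnatal day 5 by immunopanning, which removed cells bearing Cd45, BSL I lectin or O4 and kept cells bearing HepaCAM. Microglia came from whole brains of mice at postnatal days 7 to 10 by magnetic separation on Cd11b, the product of *Itgam*, one of the members, after perfusion meant to clear blood-borne myeloid cells.

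The astrocyte conditions were WT quiescent (PBS), WT activated, SOD1G93A quiescent (PBS) and SOD1G93A activated, and activated cultures had received a mixture of 3 ng/mL IL-1α, 30 ng/mL TNFα and 400 ng/mL C1q. The microglia conditions were WT quiescent (PBS), WT with LPS at 50 ng/mL and SOD1G93A with LPS at 50 ng/mL. A further condition of the study, SOD1G93A quiescent microglia with 3 samples, had no values in the files. SOD1G93A mice carry a transgene of mutant human SOD1, used as a model of amyotrophic lateral sclerosis, and it is expressed from the human promoter in many cell types. These cultures came from pups, well before such mice become ill. The labels do not say whether the 3 libraries of a condition came from separate animals, so p-values measure the spread between samples, which may be technical. The paper points to a supplementary table with the number of biological replicates per experiment, which was not available here.

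Leukocyte integrins are pairs of an alpha and a beta subunit on the cell surface. *Itgal* or *Itgam* with *Itgb2* binds *Icam1*, *Itga4* with *Itgb1* binds *Vcam1* and fibronectin, *Itga5* with *Itgb1* binds fibronectin, and *Itgav* with several beta subunits binds vitronectin, fibronectin and the latent form of TGF-β. In brain, *Itgam* and *Itgb2* are known from microglia, while endothelium and reactive astrocytes can display the ligands *Vcam1* and *Icam1* during inflammation.

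Cells carried the markers of their labels. The 12 astrocyte markers summed to 6089.6 ± 643 counts-per-million units (CPM of reads on genes, mean ± SD, n = 3) in WT quiescent astrocytes and 179 ± 9.71 in WT quiescent microglia. On activation 3 of 11 tested astrocyte markers fell in WT astrocytes, *Aldoc* (log2 fold change -1.94 ± 0.09), *Acsbg1* (-1.43 ± 0.09) and *Hepacam* (-1.15 ± 0.10), with a list median of -0.81 and a sum of 4757 ± 18.8 CPM. In SOD1G93A astrocytes 3 fell and *Gfap* rose (1.94 ± 0.19), with a median of -0.45. The 14 microglia markers summed to 13108 ± 456 CPM in WT quiescent microglia. Both treatments moved their check genes. In WT astrocytes *C3* rose by a log2 fold change of 6.30 ± 0.16 (± SE throughout for fold changes, limma adjusted p = 1.03e-09) and *Lcn2* by 6.70 ± 0.14 (adjusted p = 5.76e-10). In SOD1G93A astrocytes *C3* rose by 5.54 ± 0.17 (adjusted p = 1.55e-13) and *Lcn2* by 6.16 ± 0.14 (adjusted p = 9.97e-15). In WT microglia under LPS *Nos2* rose by 7.65 ± 0.16 (adjusted p = 9.47e-11), *Il1a* by 7.46 ± 0.12 (adjusted p = 2.43e-11) and *Tnf* by 4.66 ± 0.09 (adjusted p = 6.40e-11).

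Some libraries stood apart from others of their condition. Chi-square per degree of freedom between replicates, not adjusted for depth, ran from 1.50 to 21.7 over 21 pairs. WT LPS microglia replicate 1 gave 15.1 and 13.8 against the other two, which gave 1.65 between them. SOD1G93A LPS microglia replicate 3 gave 16.8 and 21.7 against the other two, which gave 2.41. WT quiescent astrocyte replicate 3 (9.46 and 6.82) and SOD1G93A quiescent astrocyte replicate 1 (6.77 and 10.4) were also farther from their fellows. The pairs of those fellows gave 2.08 and 2.88. Both libraries were the deepest of their conditions (9258718 and 9526331 reads), and so was WT LPS microglia replicate 1 (8121620 reads). SOD1G93A LPS microglia replicate 3 was the shallowest of its condition (4042840 reads). The part of depth in these values was not tested.

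The members ranged widely in level. Compared per length, in RPKM (CPM divided by exon length in kilobases), *Itgb1* led in WT quiescent astrocytes at 184 ± 14.4 RPKM, at percentile 98.9 of genes with reads. *Itga4* was lowest there at 0.420 ± 0.033 RPKM, percentile 21.5. In WT quiescent microglia the highest were *Itgam* at 213 ± 1.84 RPKM and *Itgb2* at 203 ± 6.15 RPKM. *Vcam1* was lowest in those cells at 0.615 ± 0.116 RPKM, percentile 30.8.

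**Figure D1:**
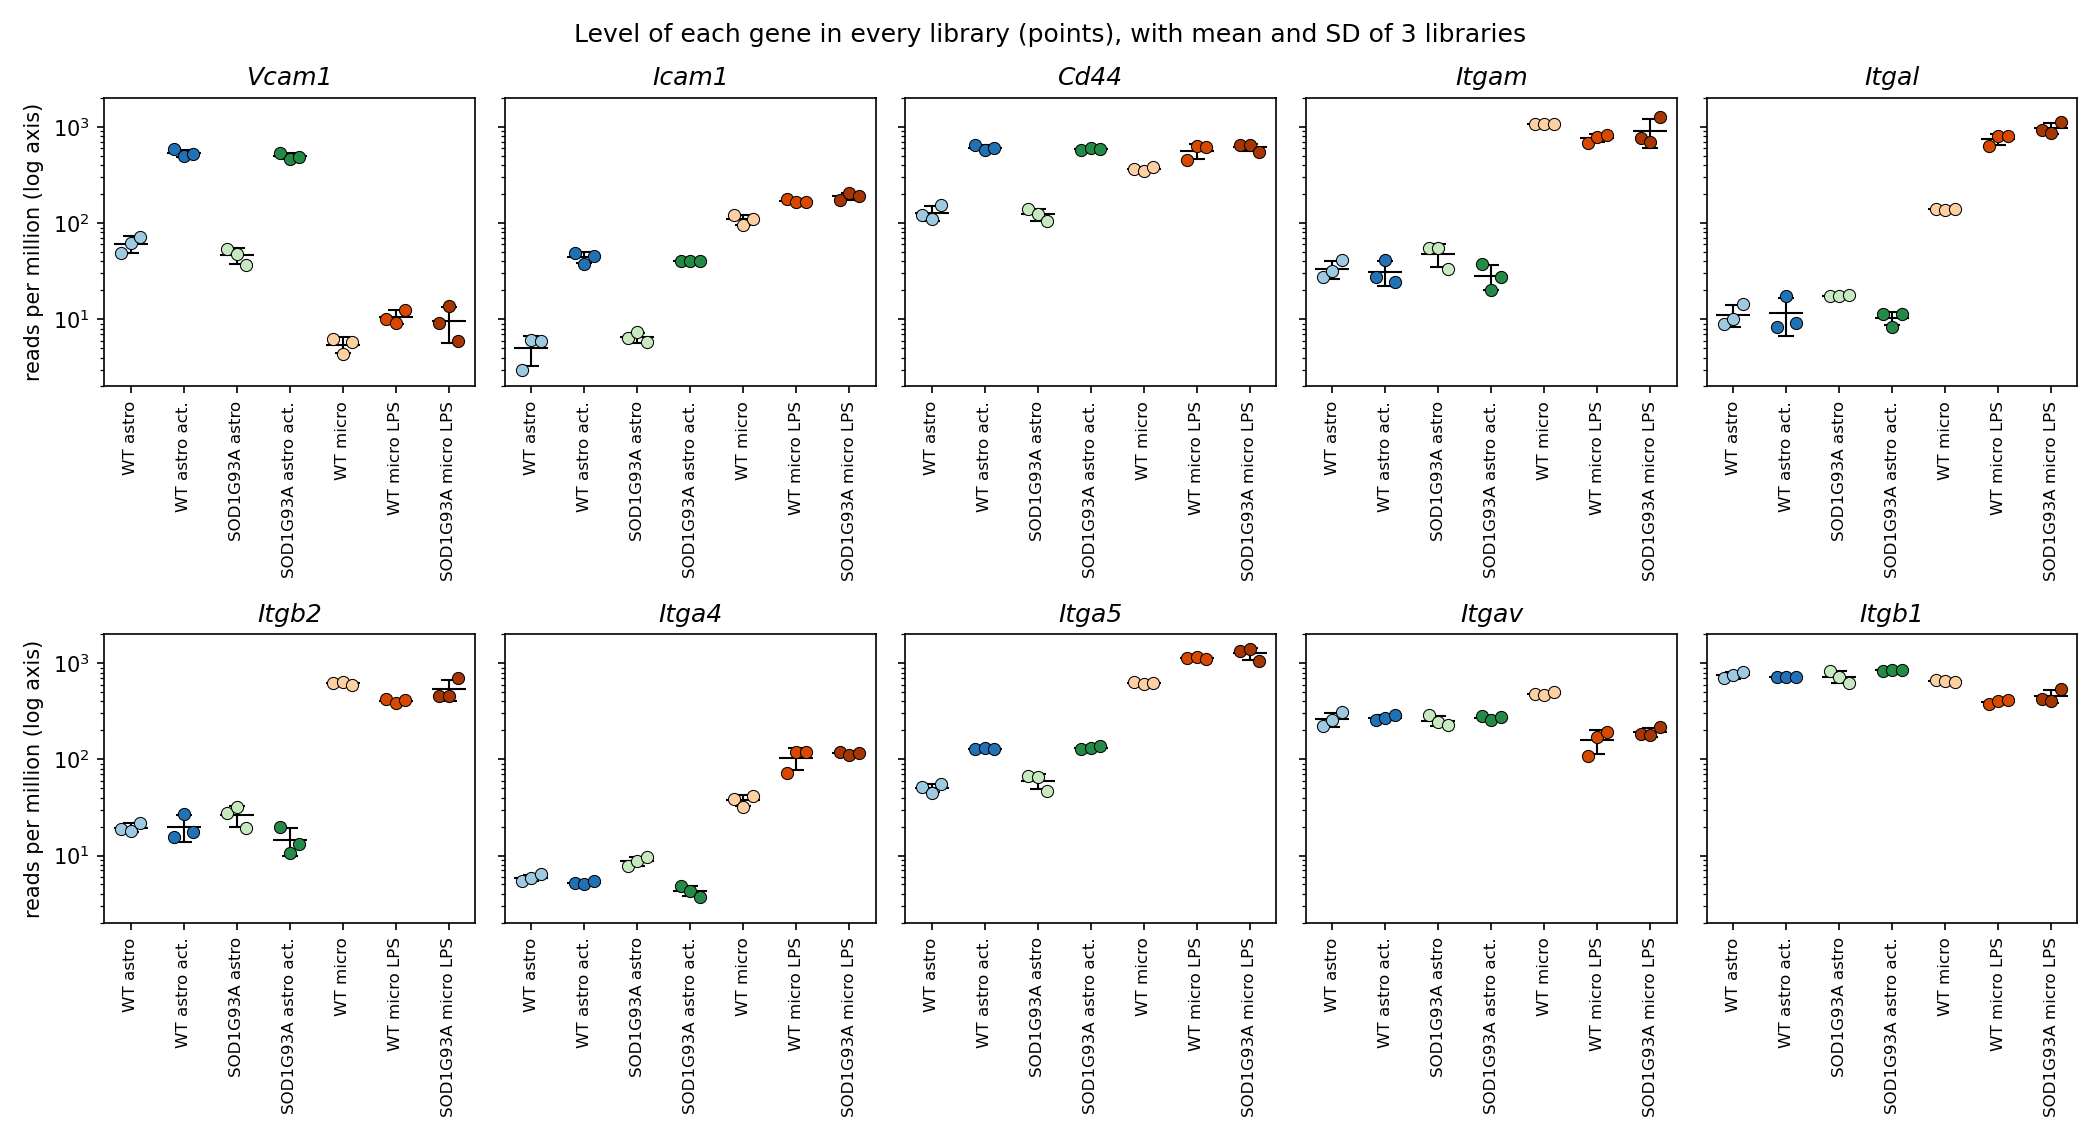
Level of each of the 10 members in each library of the 7 conditions, in CPM on a log axis, with points for libraries and bars for mean and SD (n = 3). *Vcam1* is highest in both activated astrocyte conditions, and for *Itgam*, *Itgal* and *Itgb2* no astrocyte library reaches the level of any microglia library.

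The comparison of activated with quiescent WT astrocytes asks what the IL-1α, TNFα and C1q mixture does to astrocytes. Of the 10 members 4 rose and none fell, at an adjusted p under 0.001 and more than a 2-fold change, against 11.5% of all genes tested (1424 of 12336). *Vcam1*, the immunoglobulin superfamily ligand of the *Itga4* integrin, stood at 228, 297 and 358 normalized counts in the 3 quiescent libraries and at 2839.6, 2387 and 2566 in the 3 activated ones. Every activated library was far above every quiescent one, and the groups did not overlap. This was a rise of 8.93-fold (log2 fold change 3.16 ± 0.14, adjusted p = 5.38e-08).

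*Icam1*, the ligand of the *Itgb2* integrins, stood at 13.98, 28.9 and 29.3 normalized counts in quiescent WT astrocytes and at 240.1, 183 and 228 in activated ones. All activated libraries were higher, and the low quiescent values rested on few reads, as few as 6 in replicate 1. The rise was 9.08-fold (log2 fold change 3.18 ± 0.26, adjusted p = 2.85e-06). *Cd44*, which binds hyaluronan, stood at 566, 525 and 762 normalized counts in quiescent and 3186, 2783 and 2979 in activated libraries. Again the groups were apart, with a rise of 4.88-fold (log2 fold change 2.29 ± 0.13, adjusted p = 2.21e-07).

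Among the integrin subunits, *Itga5*, the fibronectin receptor alpha subunit, was the member that passed the test in WT astrocytes. Its values were 242, 215 and 274 normalized counts in quiescent and 621, 631 and 628 in activated libraries. The activated libraries were close together and all above the quiescent ones, a rise of 2.58-fold (log2 fold change 1.37 ± 0.10, adjusted p = 1.56e-06). The other 6 members had log2 fold changes between -0.15 (*Itga4*) and 0.09 (*Itgav*), and their groups overlapped. Of all genes tested 50.9% (6282) had groups that did not overlap in this comparison. *Itgb1*, the partner of *Itga4* and *Itga5*, was at -0.05 ± 0.10 (adjusted p = 0.744).

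In SOD1G93A astrocytes the same mixture raised the same 4 members, against 13.3% of genes called (1635 of 12269). *Vcam1* went from 249.96, 214 and 161 normalized counts in quiescent libraries to 2494, 2216 and 2346 in activated ones. All activated libraries were above all quiescent ones, an 11.4-fold rise (log2 fold change 3.51 ± 0.15, adjusted p = 1.03e-11). Groups were apart for 52.0% of all genes (6378) in this comparison. *Icam1* rose by a log2 fold change of 2.67 ± 0.22 (adjusted p = 2.76e-08), *Cd44* by 2.35 ± 0.13 (adjusted p = 1.94e-10) and *Itga5* by 1.24 ± 0.12 (adjusted p = 2.91e-07). With the looser rule of an adjusted p under 0.05 at any fold, 9 of 10 members passed, against 43.4% of all genes (5328). The 5 that passed this rule alone were *Itga4* (log2 fold change -0.91 ± 0.21, adjusted p = 0.00199), *Itgb2* (-0.77 ± 0.24), *Itgal* (-0.69 ± 0.25), *Itgam* (-0.66 ± 0.24) and *Itgb1* (0.32 ± 0.11).

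Beside the lower values of *Itga4*, *Itgb2*, *Itgal* and *Itgam* on activation in SOD1G93A astrocytes, the summed microglia markers were lower too. All 14 microglia markers had reads in every astrocyte library, and none was at 0 in any condition. Their summed level was 172, 254 and 323 CPM in WT quiescent, 218, 360.2 and 190.3 in WT activated, 396, 418 and 286 in SOD1G93A quiescent and 266, 189.6 and 204 in SOD1G93A activated astrocytes. In WT quiescent astrocytes the most abundant was *Csf1r*, at 48.4 CPM. The median marker stood at 1.88%, 1.89%, 2.79% and 1.62% of its level in WT quiescent microglia in those 4 conditions, in the same order. The median log2 fold change of the 13 markers tested was -0.67 on activation in SOD1G93A astrocytes and 0.01 in WT astrocytes. None of the 13 was called in either, beside 13.3% and 11.5% of all genes. In WT activated replicate 2, which had the highest marker sum of its condition, *Itgam* (41.7 CPM), *Itgal* (17.4 CPM) and *Itgb2* (27.0 CPM) were also the highest of the 3 libraries, while *Itga4* (5.02 CPM) was the lowest. In SOD1G93A quiescent replicate 3, which had the lowest marker sum of its condition, *Itgam* (33.1 CPM) and *Itgb2* (19.1 CPM) were the lowest, while *Itgal* (17.9 CPM) and *Itga4* (9.72 CPM) were the highest. The part of microglia in these members' values was not tested. In bulk RNA, fewer cells of a type and less RNA per cell cannot be told apart.

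Against their level in quiescent microglia, the members in WT quiescent astrocytes fell into distinct ranges. *Itgam* stood at 3.13% ± 0.66 and *Itgb2* at 3.16% ± 0.33, within the 1.41% to 5.42% span of the 14 microglia markers, and *Icam1* stood at 4.57% ± 1.60, also within it. *Itgal* stood at 8.03% ± 2.09, *Itga5* at 8.13% ± 0.84, *Itga4* at 15.6% ± 1.24, *Cd44* at 35.0% ± 6.31 and *Itgav* at 54.3% ± 9.14, all above that span. *Itgb1* at 115% ± 8.94 and *Vcam1* at 1119% ± 219 were higher in the astrocytes in CPM. For *Itgb1* the direction turned with scaling, and by normalized counts the microglia were higher (4017 ± 62.9 against 3156 ± 388, SD, n = 3). After activation *Icam1* reached 40.6% ± 5.33 and *Cd44* 167% ± 10.9, while *Itgam* stood at 2.93% ± 0.85. All these percentages are of CPM, and those of the other members depend on scaling too. Size factors over all 21 libraries put *Icam1* at 188 normalized counts in WT activated astrocytes and 666 in quiescent microglia. By them *Cd44* stood at 2579 and 2236 in those conditions. *Itgav* stood at 1109 in WT quiescent astrocytes and 2951 in quiescent microglia.

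The comparison of LPS-treated with quiescent WT microglia asks how microglia respond to a bacterial product. At an adjusted p under 0.001 and more than 2-fold, 4 members rose and 1 fell, against 20.8% of all genes (2263 of 10866). *Itgal*, the alpha subunit of LFA-1, stood at 729.7, 741 and 728 normalized counts in quiescent libraries and at 3817, 5004 and 4868 under LPS. The quiescent libraries were nearly equal and all LPS libraries were several-fold higher, a 6.18-fold rise (log2 fold change 2.63 ± 0.11, adjusted p = 9.63e-09). *Itga4*, which binds *Vcam1* with *Itgb1*, stood at 197, 173 and 221 normalized counts in quiescent and 432, 751 and 728 in LPS libraries. LPS replicate 1 was the lowest of its group and still above all quiescent ones, a 3.14-fold rise (log2 fold change 1.65 ± 0.19, adjusted p = 3.84e-05). In the same comparison both peripheral leukocyte markers tested rose, *Ly6c2* from no more than 1 read in any quiescent library to 32.1 ± 3.08 normalized counts (SD, n = 3) and *Ccr2* by a log2 fold change of 1.82 ± 0.32. The 11 in that list summed to 4.25 ± 0.97 CPM in quiescent and 15.5 ± 1.80 CPM in LPS libraries. The astrocyte markers *Gja1* (2.72 ± 0.23) and *Slc1a2* (2.28 ± 0.17) also rose, 2 of 10 tested, with a list median of -0.003. *Dcn* rose, 1 of 6 pericyte and fibroblast markers tested (4.98 ± 0.52), with a list median of 0.07. Of 6 oligodendrocyte lineage markers tested, *Cspg4* (-4.01 ± 0.08) and *Mbp* (-2.21 ± 0.11) fell, with a list median of 0.20. The median log2 fold change over all genes tested was 0.005, so these lists as wholes moved little. The part of such cells in the members' values was not tested.

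*Itga5* stood at 3268, 3297 and 3267 normalized counts in quiescent microglia and at 6683, 7189.98 and 6763 under LPS. Each LPS library held about double the quiescent level, with a 2.10-fold rise (log2 fold change 1.07 ± 0.07, adjusted p = 5.26e-07). *Itgav* moved the other way, from 2478, 2516 and 2633 normalized counts to 648, 1083 and 1182. All LPS libraries were lower, and replicate 1 was the lowest of them. *Itgav* fell by 1.43 ± 0.19 on the log2 scale (adjusted p = 7.56e-05), and without LPS replicate 1 it fell by 1.17. *Vcam1* was scarce in microglia, with 32.5, 23.1 and 30.3 normalized counts in quiescent and 60.2, 57.8 and 76.8 in LPS libraries. The groups did not overlap and the rise was 2.23-fold (log2 fold change 1.16 ± 0.20, adjusted p = 0.000640). That call was lost with no filter on low values (log2 fold change 1.16) and in 5 fits that each left out a library. Those were LPS replicate 2 (log2 fold change 1.23) or 3 (1.03), or quiescent replicate 1 (1.25), 2 (1.02) or 3 (1.20), and the adjusted p ranged from 0.000271 to 0.00378 over all 15 alternatives.

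Groups did not overlap for 64.6% of all genes (7022) under LPS. The remaining members differed by less than 2-fold. *Icam1* stood at 627, 518 and 576 normalized counts in quiescent and 1056, 1039 and 1021 in LPS libraries, with a log2 fold change of 0.86 ± 0.09 (adjusted p = 1.71e-05). *Cd44* was at a log2 fold change of 0.82 ± 0.13 (adjusted p = 0.000328), and 0.99 without LPS replicate 1. The common beta subunits were lower, *Itgb1* by a log2 fold change of -0.50 ± 0.08 (adjusted p = 0.000306) and *Itgb2* by -0.39 ± 0.07 (adjusted p = 0.00122). For *Itgam*, the alpha subunit of the complement receptor for iC3b, the value was -0.27 ± 0.09 (adjusted p = 0.0284). With an adjusted p under 0.05 at any fold all 10 members passed, against 56.9% of all genes (6185).

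**Figure D2:**
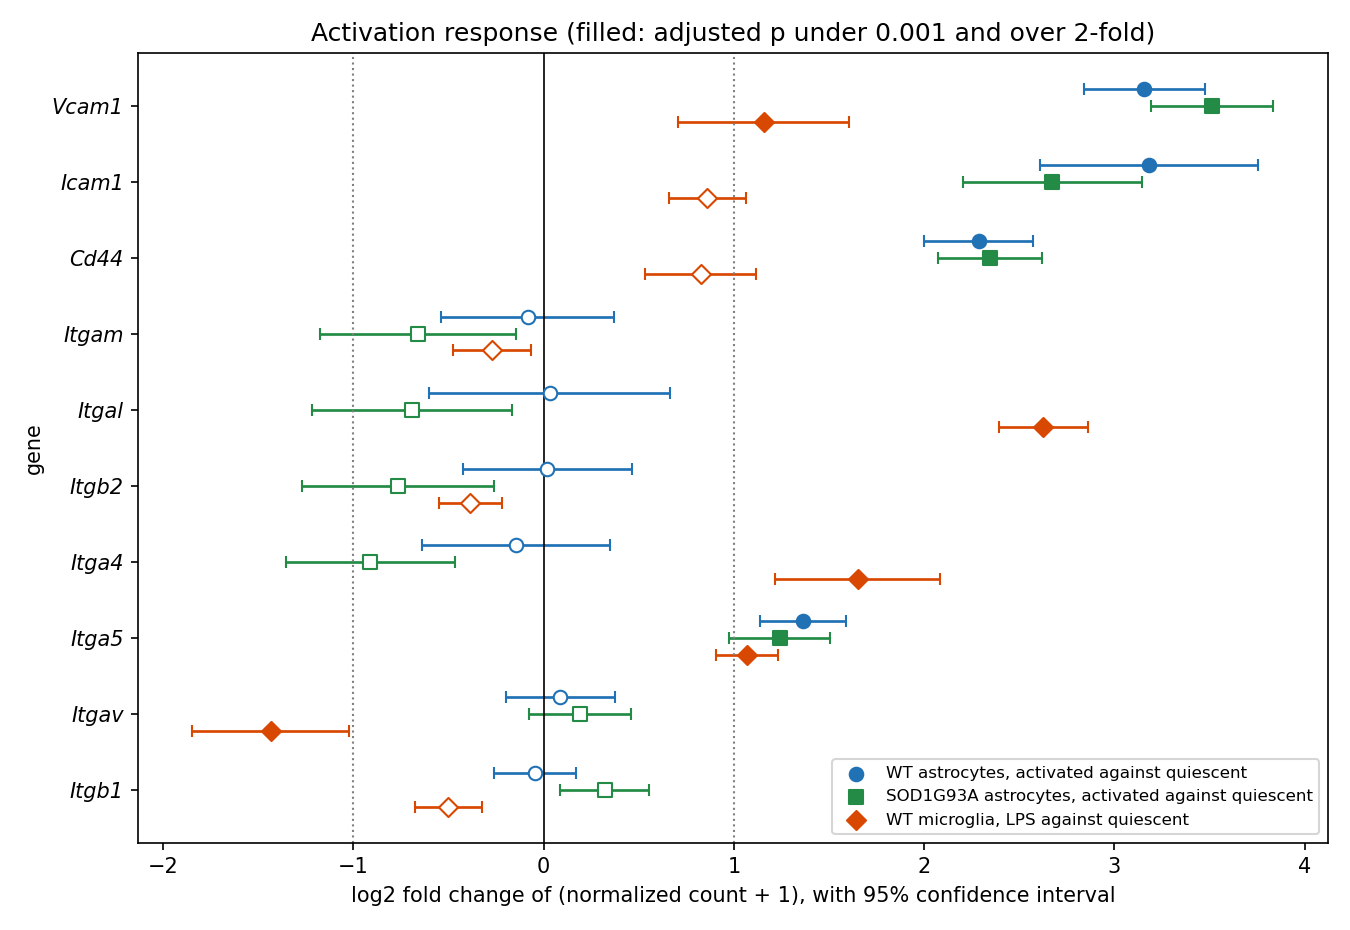
Log2 fold change with its 95% confidence interval for each of the 10 members, on activation in WT and in SOD1G93A astrocytes and on LPS in WT microglia; filled symbols passed the test and dotted lines mark a 2-fold change. *Vcam1*, *Icam1* and *Cd44* show higher values in astrocytes, *Itgal* and *Itga4* in microglia, and *Itgav* is below the lower dotted line in microglia.

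The test of the difference between the LPS response of WT microglia and the activation response of WT astrocytes, made in one fit of 12 WT libraries, called 6 of 10 members against 15.2% of all genes (1871 of 12334). The treatments differ as well as the cells, and cell type goes with isolation method, age of the mice and medium, so these cannot be told apart. *Itgal* (difference 2.62 ± 0.33, adjusted p = 2.17e-05) and *Itga4* (1.82 ± 0.27, adjusted p = 9.52e-05) had the higher log2 response in microglia. *Icam1* (-2.29 ± 0.30, adjusted p = 3.18e-05), *Vcam1* (-1.97 ± 0.25, adjusted p = 2.23e-05), *Cd44* (-1.44 ± 0.21, adjusted p = 8.57e-05) and *Itgav* (-1.50 ± 0.26, adjusted p = 0.000363) had the lower. For *Itga5*, which passed in each cell type, the difference was -0.27 ± 0.13 (adjusted p = 0.109) and was not called. The call of *Itgav* was lost in 6 fits that each left out a library, with an adjusted p of 5.11e-07 to 0.00151 over all 21 alternatives. Those libraries were WT activated astrocytes replicate 2 (-1.51) or 3 (-1.44), WT quiescent astrocytes replicate 2 (-1.48), and WT quiescent microglia replicate 1 (-1.51), 2 (-1.51) or 3 (-1.47).

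Quiescent WT microglia and quiescent WT astrocytes differed in 9 of 10 members, against 47.6% of all genes (5876 of 12334). Members higher in microglia numbered 8, from *Itgav* (log2 fold change 1.44 ± 0.19) to *Itgam* (5.56 ± 0.18, adjusted p = 1.32e-12), by which the microglia were selected as protein. *Itgb2* was close to it at 5.52 ± 0.16, and *Icam1* at 4.99 ± 0.22 had 31.9-fold more in microglia. *Vcam1* was the exception, at 38.1, 26.8 and 35.3 normalized counts in microglia against 196, 257 and 319 in astrocytes. No microglia library reached the astrocyte range, and the log2 fold change was -2.90 ± 0.18 (adjusted p = 1.18e-09). Groups were apart for 80.5% of all genes (9923). *Itgb1* was not called (0.35 ± 0.10, adjusted p = 0.00351). In this comparison TMM scaling moved the median of all genes by 0.131 on the log2 scale.

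The SOD1G93A comparisons ask whether the transgene alone, or with a stimulus, changes these cells. In quiescent astrocytes limma called 0 of 10 members and 0% of all genes (0 of 12271). At an unadjusted p under 0.05 there were 1068 genes (8.7%), among them 2 members. Of all genes edgeR called 0 and DESeq2 7, no member among them. *Itgal* stood at 87.3, 86.3 and 87.4 normalized counts in SOD1G93A and 44.2, 50.6 and 74.1 in WT quiescent astrocytes. The SOD1G93A libraries were all higher, with a log2 fold change of 0.65 ± 0.20 that was not called (adjusted p = 0.437). *Itga4* stood at 39.7, 42.5 and 47.4 normalized counts in SOD1G93A and 27.0, 28.7 and 32.6 in WT, also without overlap (log2 fold change 0.54 ± 0.21, adjusted p = 0.509). The groups were likewise apart for 14.6% of all genes (1797). The 13 tested microglia markers had a median log2 fold change of 0.57 in the same comparison, and their part in these values was not tested.

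In activated astrocytes of both genotypes limma called 0 of 10 members, against 0.645% of all genes (78 of 12098). At an unadjusted p under 0.05 there were 2464 genes (20.4%), among them 1 member, and edgeR (84 genes) and DESeq2 (83 genes) called 0 members. That member was *Itgb1*, with 2981, 2996 and 3020.3 normalized counts in WT and 3565, 3662 and 3732 in SOD1G93A libraries. Each group was tight and the SOD1G93A libraries were all higher, by 1.22-fold (log2 fold change 0.28 ± 0.06, adjusted p = 0.00229). Groups were also apart for *Itga5*, higher in SOD1G93A libraries (log2 fold change 0.08 ± 0.07), and for *Itga4*, lower in them (-0.22 ± 0.26). Of all genes 24.1% (2917) had groups that did not overlap. *Itgb1* was the 1 member that passed an adjusted p under 0.05 at any fold, against 7.27% of all genes (879).

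In LPS-treated microglia of both genotypes limma called 0 of 10 members and 0% of all genes (0 of 10679). Genes at an unadjusted p under 0.05 numbered 930 (8.71%), with 2 members among them. Of all genes edgeR called 0 and DESeq2 2, no member among them. *Itgal* stood at 3791, 4964 and 4868 normalized counts in WT and 5780.4, 5256 and 6649 in SOD1G93A libraries, a log2 fold change of 0.38 ± 0.14 (adjusted p = 0.571). *Itgb2* stood at 2520.2, 2413 and 2494 in WT and 2858, 2818 and 4145 in SOD1G93A libraries (log2 fold change 0.38 ± 0.15, adjusted p = 0.573). The groups did not overlap for either gene, and SOD1G93A replicate 3, which stood apart, was the highest for each. Without it the log2 fold changes were 0.29 for *Itgal* and 0.20 for *Itgb2*. *Icam1* also had groups apart, at 1081, 1253 and 1144 normalized counts in SOD1G93A and 1049, 1030 and 1021 in WT libraries. Its log2 fold change was 0.16 ± 0.10 (adjusted p = 0.599). Groups were apart for 18.2% of all genes (1942).

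The test of whether activation differed between SOD1G93A and WT astrocytes called 0 of 10 members and 0% of all genes with limma (0 of 12269). An unadjusted p under 0.05 was reached by 1018 genes (8.3%), among them 3 members. Of all genes edgeR called 4 and DESeq2 22, no member among them. The 3 members were *Itgb2* (difference of log2 fold changes -0.78 ± 0.34, adjusted p = 0.547), *Itga4* (-0.76 ± 0.30, adjusted p = 0.4998) and *Itgb1* (0.37 ± 0.16, adjusted p = 0.546). The median difference of the 13 tested microglia markers was -0.73, and their part was not tested. For the 4 members raised in both genotypes the differences were 0.36 ± 0.22 (*Vcam1*), -0.50 ± 0.31 (*Icam1*), 0.06 ± 0.18 (*Cd44*) and -0.12 ± 0.18 (*Itga5*).

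Since the tables were normalized separately, the order of the 7 conditions was read from CPM of recovered reads. Scaling by size factors over all 21 libraries, chosen after the data were seen, gave the same order for 6 members and another for 4 (*Cd44*, *Itgb2*, *Itgav* and *Itgb1*). *Vcam1* ran from 5.46 CPM in WT quiescent microglia to 532 CPM in WT activated astrocytes, a 97.4-fold span. Its 2 activated astrocyte conditions overlapped (532 ± 46.1 and 497 ± 32.7 CPM, SD, n = 3), its quiescent astrocyte conditions overlapped (61.1 and 46.4 CPM), and so did neighbours among the microglia conditions (10.6, 9.57 and 5.46 CPM). *Icam1* ran the other way between cell types, from 4.99 CPM in WT quiescent astrocytes to 190.2 CPM in SOD1G93A LPS microglia. Its activated astrocytes, at 44.4 CPM in WT and 40.1 CPM in SOD1G93A, lay below quiescent microglia at 109 CPM. *Cd44* in CPM had overlapping neighbours at the top, at 616, 611, 591 and 565 CPM in the LPS microglia and activated astrocytes of either genotype. By size factors the LPS microglia (4359 and 3999 normalized counts in SOD1G93A and WT) stood apart above the activated astrocytes (2557 and 2579). On both scales quiescent microglia stood apart below them (367 CPM), and both quiescent astrocyte conditions overlapped at 128 and 124 CPM.

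The microglia conditions held the top 3 places for *Itgam*, *Itgal*, *Itgb2*, *Itga4* and *Itga5*. *Itgam* (1069 CPM) and *Itgb2* (618 CPM) were highest in quiescent microglia, each overlapping with SOD1G93A LPS microglia, and by size factors the overlapping neighbours changed places for *Itgb2* (3773 and 3777 normalized counts). *Itgal* (968 CPM), *Itga4* (116 CPM) and *Itga5* (1269 CPM) were highest in SOD1G93A LPS microglia, and the ranges overlapped with WT LPS microglia for *Itga4* and *Itga5* but not for *Itgal* (746 CPM). *Itgav* was highest in quiescent microglia (484 CPM). In CPM it was lowest in WT LPS microglia (159 CPM), which overlapped with SOD1G93A LPS microglia (193 CPM). The 4 astrocyte conditions (253 to 272 CPM), overlapping as neighbours, lay between quiescent and LPS microglia. By size factors WT LPS microglia (1123 normalized counts) overlapped with WT activated and quiescent astrocytes (1149 and 1109) and were not the lowest. *Itgb1* varied least on both scales, over a 2.12-fold span in CPM from 399 CPM in WT LPS microglia to 845 CPM in SOD1G93A activated astrocytes. By size factors the span was 1.42-fold, with WT quiescent microglia highest (3999 normalized counts) and WT LPS microglia lowest (2821).

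The shares of alternative subunits, a measure chosen after the values were seen, were compared per length in RPKM with no test. *Itgal* made up 9.21%, 8.91% and 9.08% of *Itgal* plus *Itgam* in the quiescent microglia libraries, and 41.6%, 43.9% and 42.4% in the WT LPS libraries. The LPS libraries were all higher, and those of SOD1G93A microglia were at 48.3%, 48.2% and 40.4%. In astrocyte cultures the mean share was 20.3% to 22.8%. Among *Itga4*, *Itga5* and *Itgav*, *Itga5* went from 29.4% ± 3.32 in quiescent to 50.3% ± 1.76 in activated WT astrocytes, and from 72.6% ± 0.75 to 91.2% ± 2.23 with LPS in WT microglia. The share of *Itgav* went from 25.9% ± 0.60 to 5.87% ± 1.54 with LPS. These shares are among the named members only and leave out other alpha subunits. One left out was *Itga6*, at 3315 normalized counts in quiescent WT microglia, beside 3277 for *Itga5*, and at 298 with LPS.

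Of a list of 21 other integrin subunits, 2 of 10 tested rose in activated WT astrocytes and none fell, beside 11.5% of all genes called. They were the laminin receptor subunits *Itga3* (log2 fold change 2.65 ± 0.23) and *Itga7* (2.13 ± 0.25), and the same 2 rose in SOD1G93A astrocytes (2.14 and 2.74), beside 13.3% of all genes. In LPS-treated microglia 1 of 8 tested rose, *Itgb7* (2.19 ± 0.35), and 4 fell, beside 20.8% of all genes called. *Itgb3* (-3.66 ± 0.15) and *Itgb5* (-3.11 ± 0.09), both partners of *Itgav*, and *Itga6* (-3.48 ± 0.11) had the largest falls. The median log2 fold change of the list was 0.60 in WT astrocytes and -0.43 in microglia, beside 0.01 and 0.00 over all genes tested.

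Of 26 other leukocyte adhesion molecules, 4 of 16 tested rose in activated WT astrocytes and none fell, beside 11.5% of all genes called. The selectin *Sele* stood at no more than 3 reads in any WT quiescent library and at 19.7 ± 1.78 CPM in activated ones. The addressin *Madcam1* stood at no more than 1 read and at 14.2 ± 1.86 CPM. *Cd47*, the ligand of the inhibitory receptor Sirpα, rose by 2.28 ± 0.18. Both *Sele* (24.1 ± 2.69 CPM) and *Madcam1* (12.2 ± 0.20 CPM) were also called in SOD1G93A astrocytes, where 4 of 16 rose, beside 13.3% of all genes. In LPS-treated microglia 4 of 15 rose and 7 fell, beside 20.8% of all genes, with *Pecam1* (4.17 ± 0.46), *Pvr* (2.31 ± 0.12) and *Cd47* (2.13 ± 0.09) higher and *Cd34* (-3.78 ± 0.11), *Mcam* (-3.11 ± 0.35) and the selectin ligand *Selplg* (-2.05 ± 0.08) lower.

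*Vcam1*, *Icam1*, *Sele* and *Madcam1* are also known from endothelium, so the endothelial markers were read as well. In the WT quiescent astrocytes 4 of 10 had a read in any library, in WT activated 6 of 10. The list summed to 8.93, 9.90 and 13.4 CPM in WT quiescent and 137, 149 and 154 CPM in WT activated libraries, and to 7.28 and 116 CPM (means) in SOD1G93A quiescent and activated ones. *Flt1* was the most abundant, at 8.85 CPM in WT quiescent and 144 CPM in WT activated astrocytes (log2 fold change 4.02 ± 0.14). In those conditions, in that order, *Pecam1* stood at 0.164 and 1.69 CPM, *Kdr* at 1.60 and 0.841, *Cdh5* at 0.128 and 0, *Tek* at 0 and 0.182, *Esam* at 0 and 0.107, and *Emcn* at 0 and 0.355. *Cldn5*, *Tie1* and *Ly6c1* were at 0 in every library of all 7 conditions, and *Cdh5* was at 0 in 3 of the 4 astrocyte conditions. In WT microglia the list summed to 72.6 ± 4.62 CPM in quiescent and 50.9 ± 5.18 CPM in LPS libraries. Of 3 tested there *Pecam1* (4.17 ± 0.46) and *Kdr* (1.01 ± 0.16) rose and *Flt1* fell (-3.47 ± 0.21).

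Lists of other cells gave these sums. The 11 peripheral leukocyte markers found summed to between 2.49 CPM in WT quiescent astrocytes and 15.5 CPM in WT LPS microglia, with *Klrb1c* or *Ccr2* the most abundant and *Cd3e*, *Cd3g* and *Nkg7* at 0 throughout. The 11 oligodendrocyte lineage markers summed to 3014 CPM in WT quiescent and 1131 CPM in WT activated astrocytes, with 3 of 9 called lower. *Olig1* was the most abundant of them in both (1799 and 531 CPM). In WT quiescent microglia they summed to 1372 CPM, of which *Cspg4* was 1229 CPM. The 10 pericyte and fibroblast markers summed to 149.7 and 114 CPM in WT quiescent and activated astrocytes, with *Tagln* the most abundant, and to 40.9 CPM in WT quiescent microglia. On activation of WT astrocytes *Lum* (21.5 ± 3.78 CPM) and *Dcn* (12.6 ± 2.69 CPM) rose from no more than 3 reads in any quiescent library, while *Acta2* (log2 fold change -1.16 ± 0.19) and *Tagln* (-1.13 ± 0.13) fell, and the median log2 fold change of the 6 tested was -0.04. In SOD1G93A astrocytes 3 of 5 tested rose, *Lum*, *Dcn* and *Pdgfrb* (1.22 ± 0.24), and none fell, with a median of 1.22. The 8 neuron markers summed to 899 and 428 CPM in WT quiescent and activated astrocytes, mostly *Map2*, and to 17.0 CPM in WT quiescent microglia. *Map2* fell on activation of WT astrocytes (-1.15 ± 0.11) and *Tubb3* rose (1.03 ± 0.15). Under LPS 10 of 14 microglia markers fell in WT microglia, where the list summed to 4331 ± 319 CPM and *Tmem119* stood at 3.49% of its quiescent level.

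Of 27 integrin ligands of the matrix, 6 of 20 tested rose in activated WT astrocytes and 1 fell, beside 11.5% of all genes called. Those that rose included *Thbs2* (log2 fold change 5.51 ± 0.39), osteopontin, encoded by *Spp1* (3.64 ± 0.18), and *Nid1* (2.45 ± 0.14). The *Itgav* ligand *Mfge8* fell (-2.16 ± 0.08). In SOD1G93A astrocytes 8 of 20 rose and 2 fell, beside 13.3% of all genes. In LPS-treated microglia 2 of 17 rose, *Thbs1* (6.15 ± 0.19) and *Edil3* (2.77 ± 0.30), and 4 fell, beside 20.8% of all genes called. Among those that fell were *Spp1* (-2.13 ± 0.11), *Mfge8* (-1.79 ± 0.10) and fibronectin, *Fn1* (-1.58 ± 0.13).

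Of 29 hyaluronan genes and partners of *Cd44*, 21 were tested in activated WT astrocytes, where 3 rose and 4 fell, beside 11.5% of all genes called, and the median log2 fold change was -0.06 beside 0.01 over all genes. The hyaluronan synthase *Has2* rose from 1.09 ± 0.10 to 55.2 ± 1.36 CPM (log2 fold change 5.44 ± 0.19), the hyaluronan-degrading *Cemip* by 3.32 ± 0.15 and the proteoglycan *Vcan* by 1.94 ± 0.09. *Hmmr* (-1.50 ± 0.10), *Bcan* (-1.47 ± 0.08) and *Ncan* (-1.21 ± 0.12) were lower. In SOD1G93A astrocytes 4 of 21 rose and 2 fell, beside 13.3% of all genes. In LPS-treated microglia 5 of 18 rose and 3 fell, beside 20.8% of all genes, and the synthase that rose was *Has1*, from no more than 3 reads in any quiescent library to 28.6 ± 4.91 CPM.

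Of 32 integrin adaptors and signalling genes, 2 of 28 tested rose in activated WT astrocytes, where 11.5% of all genes were called. They were *Fyb* (log2 fold change 1.54 ± 0.21) and *Skap2* (1.296 ± 0.14). In SOD1G93A astrocytes none of 28 rose and *Syk* fell (-1.20 ± 0.17), beside 13.3% of all genes called. In LPS-treated microglia 4 of 28 rose, beside 20.8% of all genes called in either direction, with the kinase *Syk* (2.63 ± 0.09), *Bcar1* (2.16 ± 0.22) and *Fyb* (1.21 ± 0.09) the largest. Another 5 fell, with *Tln2* (-2.61 ± 0.20), *Parvg* (-2.46 ± 0.14) and *Actn1* (-1.63 ± 0.10) the largest. In the genotype comparisons and the difference of activation between genotypes, none of these 5 lists had a gene called. Of all genes 0.645% were called in activated astrocytes and 0% in the others of those comparisons.

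The genes most like each member over the 21 libraries were searched among 12380 genes by Pearson correlation of log2(CPM + 1), as a description in which the libraries share cell types and conditions. For *Itgam* they were *Itgb2* (r = 0.998), *Lyz2* and *Mpeg1*, and for *Itgb2* they were *Itgam*, *Slamf9* and *Myo1f*. For *Itgal* they were *Cybb* (0.997), *Syk* and *Nlrp3*, and for *Itga4* they were *Syk* (0.995), *Cybb* and *Maf*. For *Vcam1* they were *Gap43* (0.994), *Map1b* and *Rhou*, for *Icam1* *Junb* (0.991), *Tfe3* and *Litaf*, and for *Cd44* *Ripk2* (0.979), *Nfe2l2* and *Relb*. For *Itga5* they were *Ctsl* (0.995), *Acsl5* and *Ell2*, for *Itgav* *Man1a2* (0.974), *Wdr26* and *D15Ertd621e*, and for *Itgb1* *Eef2* (0.977), *Aplp2* and *Tkt*.

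The members are protein-coding genes on 7 mouse chromosomes (GENCODE M21, GRCm38). *Itgal* (chr7:127296260-127335138, plus strand) and *Itgam* (chr7:128062640-128118491, plus strand) lie on the same chromosome. *Itga4* (chr2:79255426-79333123, plus), *Itgav* (chr2:83724397-83806916, plus) and *Cd44* (chr2:102811141-102901665, minus) share another. *Vcam1* is at chr3:116109949-116129688 (minus), *Icam1* at chr9:21015985-21028817 (plus), *Itgb2* at chr10:77530252-77565708 (plus), *Itga5* at chr15:103344286-103366763 (minus) and *Itgb1* at chr8:128685654-128733200 (plus).

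Promoter windows of 300 bases, 250 before to 50 after the RefSeq gene start (GRCm38.p6), were available for 7 of the 10 members, all but *Vcam1*, *Itgal* and *Itgb2*. Both strands were searched for 5 motifs. The Sp1 core GGGCGG was in 7 of the 7 windows, beside 35.7% of all 32851 windows, and the PU.1 core GAGGAA in 5 of 7, beside 28.3%. TATAAA was in 1 of 7, *Icam1*, beside 13.6% of all windows. The NF-kB consensus and AP-1 TGANTCA were in none of the 7, beside 4.50% and 7.81% of all windows. A further run of letters, GGAAATTCC, was chosen after the *Icam1* sequence was seen, and it lay in the *Icam1* window at -153 and in 0.317% of all windows. Those letters are the last 9 of one form of the NF-kB consensus.

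The 250 bases before the RefSeq start are shown for 3 of the members raised in activated astrocytes, *Icam1* (chr9:21015690-21015939, plus strand), *Cd44* (chr2:102901666-102901915, minus strand) and *Itga5* (chr15:103366792-103367041, minus strand). *Itgam* (chr7:128062390-128062639, plus strand), which did not pass the test there, is shown beside them. All are from RefSeq, 5′ to 3′ on the gene's strand. Capitals mark GGAAATTCC in *Icam1*, GAGGAA or its complement TTCCTC in *Cd44*, *Itga5* and *Itgam*, and also GGGCGG or its complement CCGCCC in *Itga5*.
Icam1: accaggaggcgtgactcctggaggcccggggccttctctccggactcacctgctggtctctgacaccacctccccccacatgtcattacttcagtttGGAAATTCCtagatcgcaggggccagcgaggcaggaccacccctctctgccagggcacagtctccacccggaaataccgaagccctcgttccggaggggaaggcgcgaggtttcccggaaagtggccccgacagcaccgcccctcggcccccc
Cd44: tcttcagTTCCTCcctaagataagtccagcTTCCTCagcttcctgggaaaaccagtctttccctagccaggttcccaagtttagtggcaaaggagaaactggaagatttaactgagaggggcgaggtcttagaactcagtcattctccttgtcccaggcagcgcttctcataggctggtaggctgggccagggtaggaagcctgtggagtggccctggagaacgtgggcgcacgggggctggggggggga
Itga5: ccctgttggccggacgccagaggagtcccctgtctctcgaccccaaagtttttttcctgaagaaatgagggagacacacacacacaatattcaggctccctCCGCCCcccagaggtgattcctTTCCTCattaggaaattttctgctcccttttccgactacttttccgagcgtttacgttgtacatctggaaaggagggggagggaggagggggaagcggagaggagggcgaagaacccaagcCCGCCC
Itgam: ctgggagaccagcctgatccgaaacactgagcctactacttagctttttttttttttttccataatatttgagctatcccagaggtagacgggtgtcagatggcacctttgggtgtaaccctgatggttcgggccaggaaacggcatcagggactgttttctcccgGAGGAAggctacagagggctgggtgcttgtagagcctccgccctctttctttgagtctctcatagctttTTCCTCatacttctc
A match is a description of letters only.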

How the data were processed

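RNA of 21 libraries was analysed. The deposited values are a signal in normalized counts: the authors aligned reads to mm10 with STAR, counted them with RSEM and divided them by DESeq2 size factors within each of 6 tables. Their columns of fold change, p and adjusted p were not used. In every column 100% of values were whole reads (tolerance 0.001), and the 15 repeat columns held the same reads. The 3 quiescent SOD1G93A microglia samples were not analysed here.

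The test was that of limma 3.58.1 (R 4.3.3) with an intensity trend. It took log2 values with a pseudocount of 1 from the table holding both groups, for genes whose mean reached 10, with Benjamini-Hochberg adjustment over all genes tested. Comparisons across tables used recovered reads scaled together over 12 libraries. Calls needed an adjusted p under 0.001 and more than 2-fold. Two-sided exact permutation of 3 against 3 cannot go below p = 0.1. Recovered reads were also tested with edgeR 4.0.16 and DESeq2 1.42.0, which called 1477 and 1536 genes in activated WT astrocytes and 2357 and 2395 in LPS-treated WT microglia. Replicate numbers showed no pairing and were tried as a block. CPM used recovered reads, and RPKM used GENCODE M21 exon lengths.

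Named genes were all members, up to 3 called genes in each direction with the largest change from each list and comparison, the activation check genes, and the 3 genes most like each member. Members and lists were chosen with earlier results of these data known. Genes absent under a current symbol were matched by RefSeq synonyms, and *Ly6g* was not in the tables.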

Additional observations from a re-analysis of the deposited data

Results flagged for a closer look

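For 6 members the response to stimulation differed between cell types by the test of the difference itself (limma, LPS against quiescent in WT microglia minus activated against quiescent in WT astrocytes, log2 scale, n = 3 a group), which also called 15.2% of all genes (1871 of 12334). The difference was 2.62 ± 0.33 for *Itgal* (adjusted p = 2.17e-05) and 1.82 ± 0.27 for *Itga4* (adjusted p = 9.52e-05), higher in microglia. It was -2.29 ± 0.30 for *Icam1* (adjusted p = 3.18e-05), -1.97 ± 0.25 for *Vcam1* (adjusted p = 2.23e-05), -1.44 ± 0.21 for *Cd44* (adjusted p = 8.57e-05) and -1.50 ± 0.26 for *Itgav* (adjusted p = 0.000363), lower in microglia. The call of *Itgav* held in 15 of 21 alternatives and was lost in 6. The stimuli, the isolation, the age of the mice and the medium also differed between the cell types, and these cannot be told apart.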

How the results depend on the processing

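The number of members called was the same as reported in 142 of 159 results under the alternatives and differed in 17. The alternatives were pseudocounts of 0.5 and 5, no filter, at least 10 in every library, TMM scaling, edgeR, DESeq2, an adjusted p under 0.05 at any fold, a block for replicate numbers, and fits that each left out 1 library. With an adjusted p under 0.05 at any fold the number became 1 (from 0) for SOD1G93A against WT activated astrocytes, 10 (from 5) for LPS against quiescent WT microglia, 9 (from 4) for activated against quiescent SOD1G93A astrocytes, 10 (from 9) for quiescent microglia against astrocytes and 7 (from 6) for the difference between cell types. The shares of all genes passing that rule were 7.27%, 56.9%, 43.4%, 78.6% and 41.0%, in the same order. The looser limits alone make these differences. With no filter the number was 4 (from 5) for LPS in WT microglia. Leaving out 1 library gave 4 to 5 members for LPS in WT microglia and 5 to 6 for the difference between cell types, and no change in the other 7 comparisons. Of 1590 member fold changes under the alternatives 1534 kept their direction and side of the limits, 13 passed the limits that they had not passed before, 12 no longer passed them, and 31, of 20 results, changed direction. None of these 20 results was called, the largest was 0.212 in size, and each change came from leaving out 1 library. Their log2 fold changes over the left-out libraries are given as ranges. In SOD1G93A against WT quiescent astrocytes these were *Cd44* (-0.178 to 0.0885), *Itgav* (-0.196 to 0.0691) and *Itgb1* (-0.207 to 0.0258). On activation in WT astrocytes these were *Itgal* (-0.285 to 0.25), *Itgb2* (-0.211 to 0.183), *Itgam* (-0.298 to 0.0954), *Itgav* (-0.0451 to 0.232) and *Itgb1* (-0.116 to 0.0317). In SOD1G93A against WT activated astrocytes these were *Cd44* (-0.0509 to 0.0453), *Itgam* (-0.318 to 0.112), *Itgal* (-0.268 to 0.251), *Vcam1* (-0.112 to 0.0117) and *Itgav* (-0.00329 to 0.0958). In SOD1G93A against WT LPS microglia these were *Vcam1* (-0.508 to 0.102), *Itgam* (-0.0371 to 0.361), *Cd44* (-0.0281 to 0.244) and *Itga4* (-0.0645 to 0.333). For the difference between genotypes these were *Cd44* (-0.0985 to 0.179) and *Itgav* (-0.0361 to 0.24). For the difference between cell types it was *Itgam* (-0.357 to 0.0548). Size factors over 21 libraries in place of CPM, chosen after the data were seen, moved the span between highest and lowest condition beyond its spread in 9 of 10 members. The span narrowed for *Vcam1* (97.4 to 67.5-fold) and *Itgb1* (2.12 to 1.42-fold). It widened for *Icam1* (38.1 to 63.5-fold), *Cd44* (4.97 to 8.46-fold), *Itgam* (37.6 to 53.0-fold) and *Itgal* (93.9 to 153-fold). It also widened for *Itgb2* (42.5 to 60.0-fold), *Itga4* (26.9 to 43.8-fold) and *Itga5* (25.0 to 42.1-fold). *Icam1* in quiescent WT astrocytes (6 to 55 reads) and *Itga4* in activated SOD1G93A astrocytes (8 to 18 reads) rest on few reads. So do *Vcam1* in quiescent WT microglia (11 to 64 reads), and *Itga4* (11 to 59) and *Itgal* (18 to 134) in quiescent WT astrocytes. Such counts limit the precision of their fold changes.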
